A study of Mus musculus with 6 samples.

Results

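The 9 genes described here encode proteins of necroptosis, of death receptor signalling and of the lysosome: Zbp1, Ripk1, Ripk3, Mlkl, Casp8, Cflar, Fas, Tnfrsf10b and Dram1. They are 9 of 17119 gene symbols in a table of RNA-seq read counts from 6 samples of whole mouse liver. The genes were selected on their function and on the difference between the groups of this same experiment, so their values are a description and carry no test. All mice had been fed a diet high in fat and cholesterol, abbreviated HFHCD, for 12 weeks, and all carried iCre, a Cre recombinase driven from Clec4f, a gene whose expression marks Kupffer cells, macrophages that reside in liver sinusoids. The 3 wild-type samples (Clec4f-iCre;Cebpb+/+) came from littermates with both copies of Cebpb, which encodes the transcription factor C/EBPβ. In the 3 heterozygous samples (Clec4f-iCre;Cebpbfl/+) 1 floxed copy can be lost in cells that express the recombinase. The genotype labels of replicates 2 and 3 spell the driver Clec5f and Clec6f in both groups, and the series design, which names Clec4f for all, was followed. The age, sex and litter of each animal are not in the labels, which also do not say that each sample is a separate animal, so the tests below measure the spread between these samples.

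Necroptosis is a form of cell death in which the plasma membrane bursts. ZBP1, an interferon-induced protein that senses left-handed RNA and DNA, and RIPK1, a kinase recruited to the TNF receptor, each bind the kinase RIPK3, which phosphorylates MLKL, and MLKL then disrupts the membrane. Death receptors such as Fas and TRAIL receptor (the product of Tnfrsf10b) instead activate the protease caspase-8, which starts apoptosis and, in partnership with the inactive caspase-like protein c-FLIP (the product of Cflar), cleaves RIPK1 and RIPK3 and so holds necroptosis back. Hepatocytes are known to undergo Fas-driven apoptosis readily and to contain little RIPK3, whereas macrophages carry the necroptosis proteins. Dram1 encodes a lysosomal membrane protein, first described as a p53 target that promotes autophagy.

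The promoters of 7 of the 9 genes were present in a RefSeq table of the build GRCm38.p6, which is older than the build GRCm39 named for the counts; Zbp1 and Tnfrsf10b had no entry. Because Cebpb is the manipulated gene, the 250 bases upstream of each start site were searched for TTGCNNAA, 8 letters that resemble the C/EBP consensus, on both strands, and no window of a member held more than 1 of the 3 motifs searched. Of 32851 such windows in the whole table, 9.56% held a match. The 3 windows shown are those of Dram1, the gene with the largest difference between the groups and 2 matches, of Cflar, a gene with nearly equal levels and 1 match, and of Ripk3, a gene with a difference and no match. Capitals mark the matches, and all sequences are written 5′ to 3′ on the gene's strand.
Dram1, minus strand, chr10:88357076-88357325: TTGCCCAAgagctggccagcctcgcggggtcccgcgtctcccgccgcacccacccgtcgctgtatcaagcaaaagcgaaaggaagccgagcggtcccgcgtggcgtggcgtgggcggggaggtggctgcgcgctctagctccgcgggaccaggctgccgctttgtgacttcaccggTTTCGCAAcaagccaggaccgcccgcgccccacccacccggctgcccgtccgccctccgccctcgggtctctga
Cflar, plus strand, chr1:58711241-58711490: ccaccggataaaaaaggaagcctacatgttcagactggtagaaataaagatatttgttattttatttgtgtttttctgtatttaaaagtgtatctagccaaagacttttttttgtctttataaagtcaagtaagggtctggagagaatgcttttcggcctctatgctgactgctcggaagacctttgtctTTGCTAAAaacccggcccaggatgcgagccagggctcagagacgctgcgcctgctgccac
Ripk3, minus strand, chr14:55788858-55789107: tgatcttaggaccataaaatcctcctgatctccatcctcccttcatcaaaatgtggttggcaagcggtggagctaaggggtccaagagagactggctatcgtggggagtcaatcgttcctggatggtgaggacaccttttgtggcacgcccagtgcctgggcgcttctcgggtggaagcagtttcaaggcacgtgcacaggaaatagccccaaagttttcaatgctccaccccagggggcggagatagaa

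The matches in Dram1 began 250 and 74 bases before its start site, and that in Cflar 60 bases before. No window of Mlkl, Casp8, Fas or Ripk1 (which has 2 start sites in the table) held these letters. An interferon-response motif, 2 copies of GAAA with 2 bases between them, was present in 2.98% of all windows and in none of the members' windows. The STAT motif TTCNNNGAA, present in 7.02%, occurred once in Fas and 2 times before the downstream start site of Ripk1. These are matches of letters in short windows, and binding was not measured. The letters were chosen with the sequences in view.

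The libraries held between 16895322 and 17750755 counts. Levels are given as CPM, the reads of a gene per 1000000 reads of its library after TMM scaling. Cebpb measured 506, 308 and 340.4 CPM in the wild-type group and 204, 498 and 269 CPM in the heterozygous group, so that the groups overlapped. Its log2 fold change was -0.25 ± 0.37 (edgeR adjusted p = 0.864). Since most liver cells lack the recombinase and keep their Cebpb RNA, this is a weak check of the labels. Clec4f stood at 48.6, 38.5 and 5.42 CPM against 4.31, 4.97 and 3.90 CPM (log2 fold change -2.81 ± 0.85, edgeR adjusted p = 0.26). It passed the threshold in DESeq2 (adjusted p = 0.0215) and, in edgeR, without wild-type replicate 3 (adjusted p = 0.000607), and in none of the other 5 fits with 1 library left out. Wild-type replicate 3, the wild-type library lowest in Zbp1, Ripk3, Mlkl and Dram1, was thus also the lowest in this Kupffer cell gene.

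Across the members, Zbp1, Ripk1, Ripk3 and Dram1 were lower in every heterozygous library than in any wild-type one, Mlkl and Fas had lower means with overlapping groups, and Casp8 and Cflar were nearly level. Dram1 had the largest fold difference. Means carry the SD over the 3 libraries of a group, and fold changes are fitted values, heterozygous over wild-type, with their SE. Zbp1 stood at 23.5 ± 5.06 CPM in the wild-type group and 9.21 ± 1.86 CPM in the heterozygous group, Ripk3 at 3.82 ± 0.764 and 2.05 ± 0.414 CPM, and Dram1 at 5.25 ± 2.43 and 1.23 ± 0.193 CPM. Casp8 stood at 34.8 ± 1.46 and 33.6 ± 1.01 CPM and Cflar at 64.5 ± 3.32 and 63.3 ± 6.48 CPM.

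**Figure D1:**
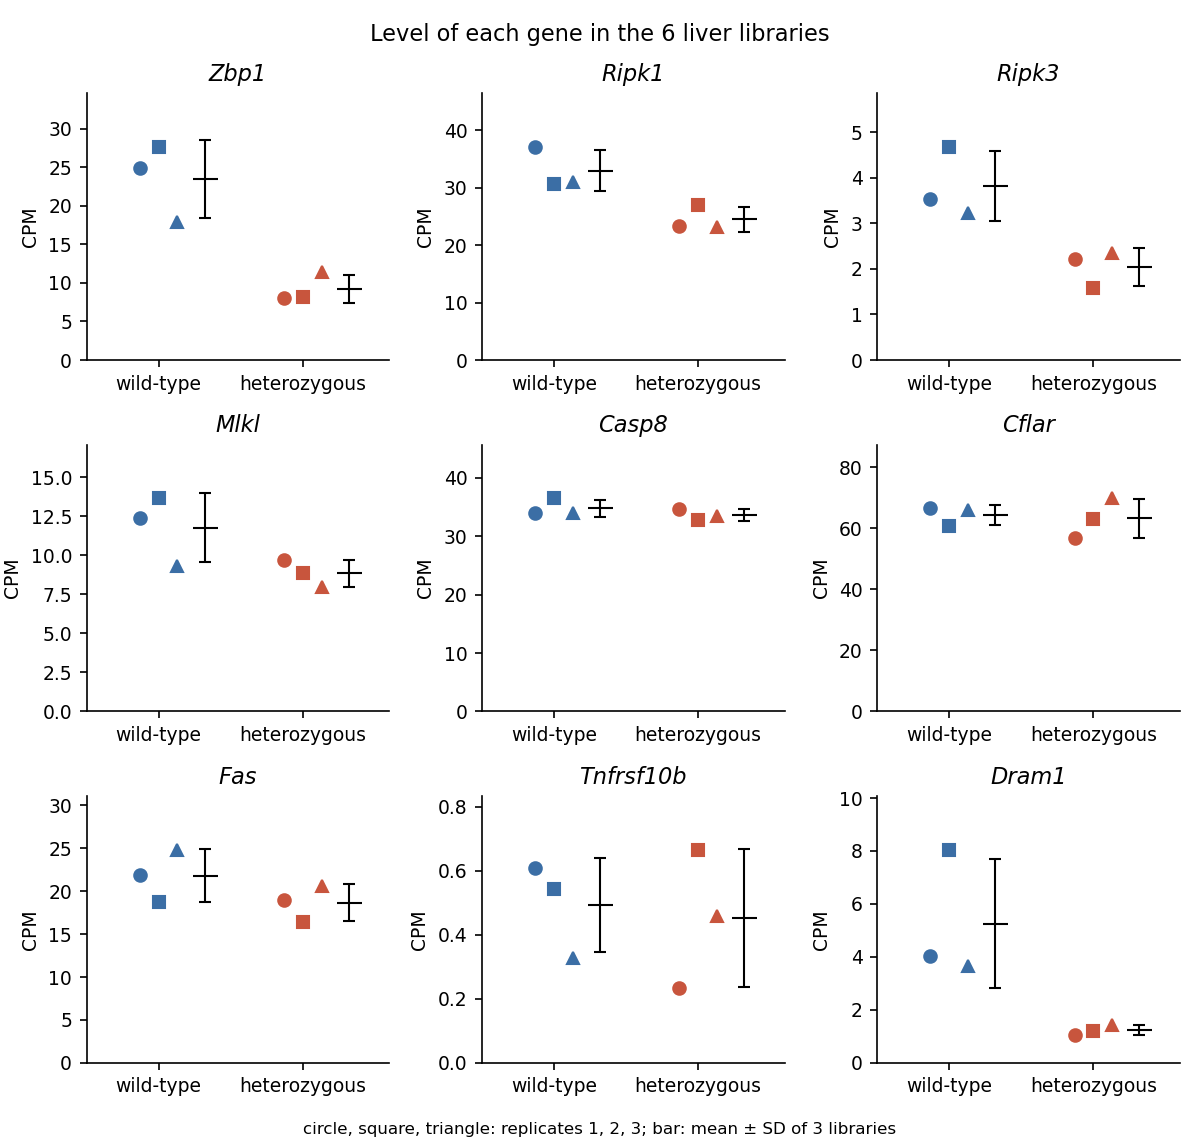
Level of each of the 9 genes (CPM, linear axis from 0) in the 3 wild-type (blue) and 3 heterozygous (red) liver libraries; symbols are replicates 1 to 3 and bars the mean ± SD. The groups are apart for Zbp1, Ripk1, Ripk3 and Dram1 and overlap for Mlkl, Casp8, Cflar, Fas and Tnfrsf10b.

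Among the sensors and kinases, Zbp1 reached 24.9, 27.6 and 17.8 CPM in the wild-type libraries (replicates 1, 2 and 3, the order used throughout) and 8.10, 8.18 and 11.4 CPM in the heterozygous ones. The lowest wild-type library was 1.57-fold above the highest heterozygous one, and the log2 fold change was -1.35 ± 0.20, or 39.3% of the wild-type level. For Ripk3, the kinase on which the upstream signals converge, the values were 3.54, 4.68 and 3.23 CPM against 2.21, 1.57 and 2.35 CPM. The groups did not overlap, although the counts behind them were small, between 26 and 86 reads per library, and the log2 fold change was -0.90 ± 0.27. Ripk1 measured 37.1, 30.7 and 31.1 CPM against 23.4, 27.0 and 23.1 CPM. Its groups lay close to each other, with 1.14-fold between the lowest wild-type and the highest heterozygous library, and its log2 fold change was -0.43 ± 0.12. Ripk1 overlaps Serpinb6a, a serpin gene on the opposite strand, in the GENCODE M21 annotation. Serpinb6a stood at 16.8 ± 0.945 and 12.5 ± 0.755 CPM, a log2 fold change of -0.43 ± 0.12, and since the strand setting of the counter is not given in the sources used here, a share of reads common to the pair was not tested.

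Mlkl, the executioner, reached 12.4, 13.7 and 9.30 CPM with both Cebpb copies and 9.73, 8.84 and 7.97 CPM in the heterozygotes. Wild-type replicate 3 lay below heterozygous replicate 1, so the groups overlapped, and the log2 fold change was -0.41 ± 0.18. Wild-type replicate 3 was also the lowest wild-type library for Zbp1 and Ripk3, and wild-type replicate 2 the highest for all 3 genes. The 3 RNAs thus had the same order of libraries in the wild-type group.

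In the caspase-8 arm, Casp8 gave 33.9, 36.5 and 34.0 CPM in the wild-type group and 34.7, 32.7 and 33.4 CPM in the heterozygous group. It varied least of the 9 genes within either group, by 1.08-fold and 1.06-fold from lowest to highest library, and its log2 fold change was -0.05 ± 0.10 with a 95% interval from -0.28 to 0.17. Cflar, which lies next to Casp8 on chromosome 1 in the RefSeq gene table, gave 66.7, 60.7 and 66.1 CPM against 57.0, 63.1 and 69.9 CPM, with the heterozygous libraries on both sides of the wild-type ones. Its log2 fold change was -0.03 ± 0.11, with a 95% interval from -0.28 to 0.23. Within each library there were 1.66 to 1.97 Cflar reads for each Casp8 read in wild-type livers and 1.64 to 2.09 in heterozygous livers.

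The reads of Casp8 can be set against those of the necroptosis genes within each library. For each Ripk3 read there were 9.59, 7.80 and 10.5 Casp8 reads in the wild-type libraries and 15.7, 20.8 and 14.2 in the heterozygous ones. For each Zbp1 read there were 1.32 to 1.91 Casp8 reads in wild-type and 2.94 to 4.29 in heterozygous livers. Neither ratio overlapped between the groups, whereas that of Casp8 to Mlkl did, at 2.67 to 3.66 and 3.57 to 4.19. These ratios restate the levels above and concern RNA of the whole tissue, in which the RNAs need not come from the same cells.

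Of the death receptors, Fas gave 21.9, 18.7 and 24.8 CPM in the wild-type group against 18.9, 16.4 and 20.6 CPM in the heterozygous group. The groups overlapped, and the log2 fold change was -0.22 ± 0.15. Tnfrsf10b, the death-inducing TRAIL receptor of the mouse, was close to the limit of these libraries, with 10, 10 and 6 reads in wild-type and 4, 11 and 8 reads in heterozygous replicates, or 0.494 ± 0.147 and 0.453 ± 0.217 CPM. It was the 1 member below the minimum for testing, which was 0.574 CPM in at least 3 libraries, and a difference between its groups was not detectable at this depth.

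Dram1 reached 4.03, 8.05 and 3.67 CPM in the wild-type libraries, while all heterozygous libraries lay low, at 1.05, 1.21 and 1.43 CPM. The lowest wild-type library was 2.56-fold above the highest heterozygous one. Wild-type replicate 2 stood at 148 reads against 66 and 67 in the other wild-type libraries, and the heterozygous libraries held 18 to 25. The log2 fold change was -2.09 ± 0.36, or 4.25-fold, and -1.63 without wild-type replicate 2. Ordered from the lowest log2 fold change among all 12706 tested genes, Dram1 was in position 36, Zbp1 249, Ripk3 728, Ripk1 1739, Mlkl 1795, Fas 2714, Casp8 5071 and Cflar 5632.

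**Figure D2:**
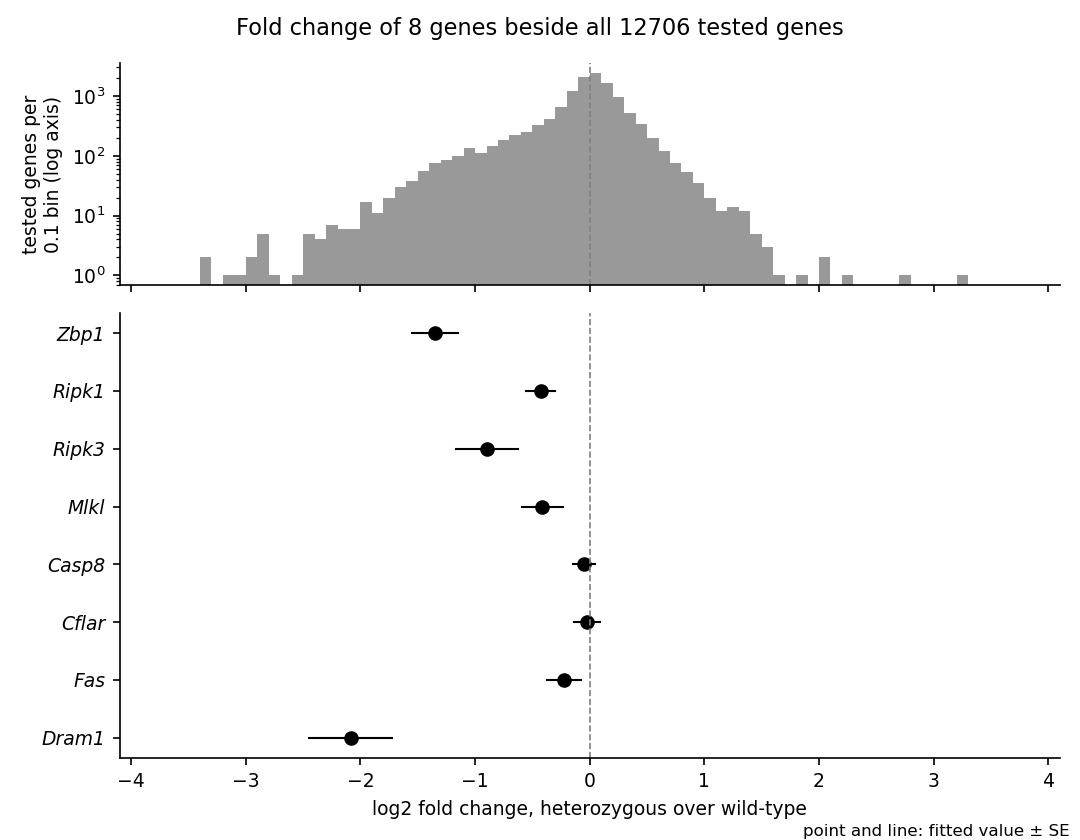
Top, number of tested genes in bins of 0.1 log2 fold change (log axis) for all 12706 tested genes; bottom, fitted log2 fold change, heterozygous over wild-type, of the 8 tested members with ± SE. Dram1 at -2.09 and Zbp1 at -1.35 lie in the lower tail, while Casp8 at -0.05 and Cflar at -0.03 lie in the middle of the distribution.

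Fitted across all genes with edgeR's quasi-likelihood test, 71 genes, 0.559% of those tested, were lower at an adjusted p under 0.05 and 3 genes, 0.0236%, were higher. Among the lower ones were 2 of the 8 tested members, Zbp1 and Dram1; as the members were chosen on this contrast, nothing is read from that count. The groups did not overlap, with every heterozygous library lower, for 4 of the 8, against 11.3% of all tested genes. Over 13 alternative settings the fold change of 7 tested members kept its sign, and that of Cflar changed sign in 3. Zbp1 was past the threshold in 7 of the 13 and Dram1 in 2, with no filter on low counts and in DESeq2. With 1 library left out, Zbp1 ranged from -1.53 to -1.21 and stayed past the threshold in 2 of 6 fits (without wild-type replicate 3 or heterozygous replicate 3), and Dram1 from -2.29 to -1.63 and in 0 of 6.

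Between genes, levels were compared per kilobase of exon, with lengths from GENCODE M21 on GRCm38, which can differ from the annotation behind the counts and include alternative transcript ends. On this scale Casp8 led the wild-type order with 12.0 ± 0.505 CPM per kilobase, followed by Fas with 10.6 ± 1.49, Zbp1 with 6.65 ± 1.43, Mlkl with 5.12 ± 0.972, Cflar with 5.09 ± 0.262 and Ripk1 with 3.95 ± 0.432. Dram1 with 1.72 ± 0.80, Ripk3 with 1.66 ± 0.333 and Tnfrsf10b with 0.0906 ± 0.027 came last. The ranges of Casp8 and Fas, of Zbp1, Mlkl and Cflar, of Mlkl and Ripk1, and of Dram1 and Ripk3 overlapped, so the order within each of these sets is not fixed by these libraries. In heterozygous livers Zbp1, at 2.61 ± 0.527 CPM per kilobase, was in place 6, below Cflar with 5.0 ± 0.511, Mlkl with 3.84 ± 0.381 and Ripk1 with 2.94 ± 0.256, the last of which it overlapped. Dram1, at 0.404 ± 0.0635, lay below Ripk3, at 0.893 ± 0.181, in every heterozygous library.

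The tested genes with the most similar profile were sought by the root mean square difference in log2 CPM over the 6 libraries, each gene centred on its mean. The nearest to Zbp1 were Ms4a6b (0.0919), Csf3r (0.107) and Fcgr1 (0.111), against a median of 0.738 over all tested genes. Csf3r encodes a granulocyte receptor and Fcgr1 an Fc receptor of macrophages. The nearest to Dram1 were Procr (0.194), the endothelial protein C receptor gene, Siglece (0.195), a lectin gene of myeloid cells, and Il2rg (0.202), the common chain of interleukin receptors, against a median of 1.05. Ripk3 lay nearest to Rasgrp1 (0.0901), Itga4 (0.0952), an integrin chain of leukocytes, and Plaat3 (0.101), against 0.531. Mlkl lay nearest to Adcy4 (0.0462), an adenylyl cyclase gene, Ly75 (0.051), an endocytic receptor gene of dendritic cells, and Bak1 (0.0693), a pore-forming member of the BCL2 family, against 0.347. The likeness is a description over 6 libraries and includes the difference between the groups.

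The remaining genes of these pathways were read from lists written without the 9 members. Among 36 tested regulators of the TNF receptor complex and of necroptosis, 0 passed the edgeR threshold in either direction, and 4 lower and 1 higher had an unadjusted p under 0.05, where 9.0% of all genes were lower and 4.20% higher at that level. DESeq2 called 1, Tnfaip3, and limma-voom 0. Over all genes DESeq2 called many more than edgeR, as given in the section on processing. Its counts in this and the following lists are therefore not to be set against the edgeR shares. The median log2 fold change was -0.02, against 0.0048 for all tested genes. Tnfaip3, which encodes the ubiquitin-editing brake A20, measured 10.98, 14.7 and 8.54 CPM against 5.82, 7.03 and 5.45 CPM (log2 fold change -0.90 ± 0.22, edgeR adjusted p = 0.109). Its partner Tnip1 had a log2 fold change of -0.52 ± 0.15 and the kinase gene Ikbke of -0.39 ± 0.12, while Ikbkg, the regulatory subunit gene of the IKK complex, stood at 0.31 ± 0.12. The adaptor genes Fadd (0.14 ± 0.13) and Tradd (-0.11 ± 0.17) and Adar (-0.07 ± 0.14), whose product edits the double-stranded RNA that ZBP1 can sense, had edgeR adjusted p-values between 0.747 and 0.907. The regulators that the receptors share were thus spread around 0.

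Of 19 tested ligands and receptors of the TNF superfamily, 1 was lower and 0 higher, with a median log2 fold change of -0.51, and 7 were lower at an unadjusted p under 0.05. DESeq2 called 3 lower (Cd40, Tnfrsf11b and Tnfrsf21) and limma-voom 1. The gene that fell was Tnfrsf21, which encodes death receptor 6, from 18.0, 15.2 and 14.3 CPM to 6.23, 8.18 and 7.05 CPM (log2 fold change -1.15 ± 0.17, edgeR adjusted p = 0.0337). This call was lost without any 1 of the 6 libraries, with adjusted p-values from 0.0506 (without heterozygous replicate 3) to 0.213 (without heterozygous replicate 1), and over all 14 alternatives its adjusted p ran from 1.02e-05 to 0.213. Tnf, the cytokine gene, measured 3.66, 3.43 and 4.54 CPM against 2.91, 1.45 and 1.26 CPM (log2 fold change -1.04 ± 0.34, edgeR adjusted p = 0.203), Cd40 had -1.26 ± 0.31 and the decoy receptor gene Tnfrsf11b -0.93 ± 0.22. Tnfrsf1a, the main TNF receptor, stood at 186 CPM in wild-type replicate 1 and between 74.3 and 105 CPM in the other 5 libraries. Tnfsf10, which encodes the ligand TRAIL, had a log2 fold change of -0.12 ± 0.37, and Fasl, the ligand of Fas, was below the filter with 0.0606 to 0.598 CPM. The list's median was -0.26 without wild-type replicate 1, -0.28 without wild-type replicate 2, -0.25 without heterozygous replicate 3 and -0.64 without wild-type replicate 3.

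Downstream of the receptors, 0 of 33 tested genes of apoptosis execution and the BCL2 family passed in edgeR, 7 were lower and 0 higher at an unadjusted p under 0.05, and the median log2 fold change was -0.10. DESeq2 called Bcl2a1b and Bcl2a1d, and limma-voom 0. These survival genes of leukocytes, with Bcl2a1a, are near-identical copies between which reads may be split, so their levels are uncertain. Bcl2a1b had a log2 fold change of -1.15 ± 0.22 (edgeR adjusted p = 0.0561), Bcl2a1d of -1.57 ± 0.35 and Bcl2a1a of -1.27 ± 0.44, and Casp12, a caspase of the endoplasmic reticulum, of -1.01 ± 0.32. In the heterozygous libraries Bcl2a1d held only 11, 12 and 14 reads and Bcl2a1a 8, 12 and 11. Bcl2a1a in heterozygous replicate 1, at 0.466 CPM, lay below the filter minimum of 0.574 CPM. Bid, which links caspase-8 to mitochondria, stood at 15.1 ± 4.31 and 15.5 ± 1.74 CPM.

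Around Dram1, 0 of 25 tested p53 targets passed in edgeR, with 0 lower and 1 higher at an unadjusted p under 0.05 and a median log2 fold change of 0.04. Trp53 itself stood at 27.7 ± 0.813 and 28.1 ± 4.68 CPM. Trp53inp1, a p53-induced gene that acts in autophagy, was called higher by DESeq2 as the list's 1 call, and limma-voom called 0; wild-type values were 92.0, 67.6 and 80.5 CPM and heterozygous values 193, 309 and 100.2 CPM (edgeR adjusted p = 0.237). Phlda3 had a log2 fold change of -0.56 ± 0.26, Aen of -0.18 ± 0.12 and Perp of 0.21 ± 0.13. Of 31 tested autophagy genes and relatives of Dram1, 0 passed in edgeR, 2 were lower and 1 higher at an unadjusted p under 0.05, and the median was 0.03. DESeq2 called 1 of them higher, Tmem150a, a distant relative of Dram1 (log2 fold change 0.58 ± 0.16), and limma-voom 0. Dram2, the closest relative, stood at 49.5 ± 6.09 and 51.7 ± 0.457 CPM, Atg14 had a log2 fold change of -0.56 ± 0.16, Map1lc3b of -0.31 ± 0.12 and Ulk1 of -0.30 ± 0.16. The log2 fold changes of the tested genes in these 2 lists ran from -0.84 to 1.33. Dram1, at -2.09, was chosen with this contrast known, so nothing is read from its place beside them.

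**Figure D3:**
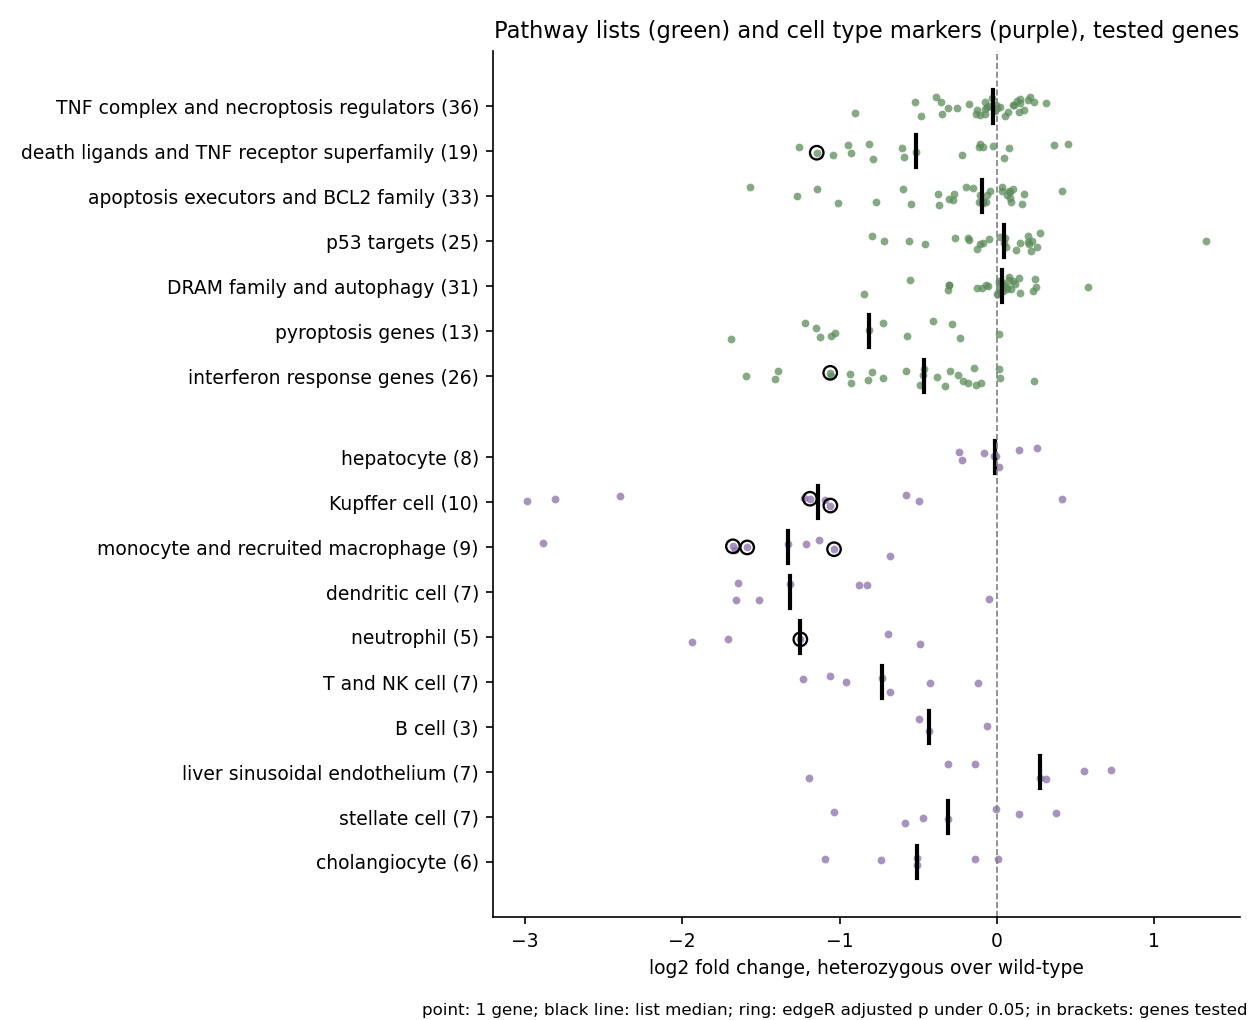
Fitted log2 fold change, heterozygous over wild-type, of each tested gene (points) in the pathway lists (green) and cell type marker lists (purple); black lines are list medians, rings mark an edgeR adjusted p under 0.05, and brackets give the genes tested. Medians of the TNF complex, apoptosis, p53 and autophagy lists lie between -0.10 and 0.04, and those of the pyroptosis, Kupffer cell, monocyte, dendritic cell and neutrophil lists between -1.33 and -0.82.

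Pyroptosis, the lytic death run by inflammatory caspases, had 0 of 13 tested genes past the edgeR threshold, but 9 lower and 0 higher at an unadjusted p under 0.05 and a median log2 fold change of -0.82. DESeq2 called Nlrc4 and Nlrp1b, both inflammasome genes, and limma-voom 0. Nlrc4 had a log2 fold change of -1.69 ± 0.38, Nlrp1b of -1.22 ± 0.31, Casp4 of -1.05 ± 0.30 and Aim2 of -1.03 ± 0.29, with edgeR adjusted p-values from 0.081 to 0.152. The value of Nlrc4 rests on few reads, 28, 31 and 29 in the wild-type and 5, 10 and 11 in the heterozygous libraries. Heterozygous replicate 1, at 0.291 CPM, lay below the filter minimum of 0.574 CPM. Of 26 tested interferon response genes, a class to which Zbp1 and Mlkl also belong, 1 was lower and 0 higher, with 11 lower at an unadjusted p under 0.05 and a median of -0.47. DESeq2 called 7 lower and limma-voom 1. Oasl2, an interferon-induced gene, fell from 14.3, 15.1 and 12.8 CPM to 5.59, 6.84 and 7.80 CPM (log2 fold change -1.06 ± 0.17, edgeR adjusted p = 0.0445). Its call was kept without heterozygous replicate 3 and lost without any other single library, with adjusted p-values from 0.0411 to 0.218 among these fits, and over all 14 alternatives from 8.41e-05 to 0.218. The GTPase gene Gbp3 had a log2 fold change of -1.39 ± 0.24, Ifi47 of -0.82 ± 0.20 and Irf8, a transcription factor gene of myeloid cells, of -0.94 ± 0.20.

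Whole liver mixes many cells, and in such samples fewer cells of a type and less RNA per cell cannot be told apart. Hepatocyte markers were abundant, at 95694 to 125354 summed CPM in wild-type and 105087 to 125158 in heterozygous livers, and the median log2 fold change of the 8 genes was -0.01. The 10 Kupffer cell markers summed to 505 to 840.2 CPM in wild-type and 270 to 288 CPM in heterozygous livers, and C1qa and C1qb were lower past the threshold. This sum rests mainly on Cd5l, C1qa, C1qb and C1qc. Timd4 (1.47 and 1.04 CPM) overlapped between the groups, as did Folr2, which had a higher heterozygous mean (6.95 and 9.25 CPM), and the other 8 were lower without overlap. The 9 markers of monocytes and recruited macrophages summed to 281 to 512 and 115 to 145 CPM, with Ccr2, Lyz2 and Cd68 past the threshold. This sum rests mainly on Lyz2 (262 and 81.9 CPM), Adgre1 (45.2 and 14.3 CPM) and Cd68 (32.4 and 15.8 CPM). It therefore does not separate recruited macrophages from Kupffer cells. Ccr2 stood at 6.30 and 2.09 CPM, and Cx3cr1 overlapped between the groups. The 7 dendritic cell markers summed to 34.6 to 37.8 and 12.9 to 27.1 CPM. Those of neutrophils, 7 genes, summed to 23.3 to 30.2 and 8.56 to 12.4 CPM, with Csf3r past the threshold. This neutrophil sum rests mainly on Csf3r (13.5 and 5.66 CPM), S100a9 and S100a8. Mmp9, Cxcr2 and Retnlg overlapped between the groups, and Ly6g held 1 read in each wild-type and 0 in each heterozygous library. The 8 measured T and NK cell markers summed to 17.8 to 27.3 and 12.2 to 13.6 CPM. Among dendritic cell genes Cd209a, Zbtb46 and Siglech overlapped, and among T and NK cell genes Cd4, Klrb1c, Gzma and Ncr1. Stellate cell markers (388 to 488 and 281 to 372 CPM) and bile duct markers (107 to 155 and 61.3 to 99 CPM) were also apart as sums, which rest mainly on Dcn with Col1a1 and on Spp1. The other 5 stellate genes overlapped between the groups. Pdgfrb (23.1 and 15.4 CPM) and Reln (67.1 and 54.2 CPM) had lower heterozygous means. Des (8.19 and 8.15 CPM) was nearly level, and Lrat (21.0 and 23.1 CPM) and Hhip had higher heterozygous means. Of the 7 stellate genes, 4 were lower and 0 higher at an unadjusted edgeR p under 0.05, with a median log2 fold change of -0.31. The bile duct genes Krt19 (2.37 and 2.39 CPM), Sox9, Epcam and Cldn7 also overlapped, and Sox9, Epcam and Cldn7 had lower heterozygous means. The sums of sinusoidal endothelium (195 to 230 and 212 to 282 CPM) and of B cells (2.87 to 7.29 and 3.33 to 5.47 CPM) overlapped. Single endothelial genes went both ways. Clec4g (42.7 and 62.6 CPM) was higher and Pecam1 (23.1 and 18.6 CPM) lower, each without overlap. Kdr (21.8 and 36.1 CPM), Stab2 and Oit3 had higher heterozygous means with overlapping groups. Lyve1 (20.4 and 8.90 CPM) and Cdh5 had lower heterozygous means, also with overlap. No marker was at 0 in all 6 libraries, and Chil3 and Ly6g were at 0 in at least 1. The edgeR calls of these markers, as of all genes, were lost without heterozygous replicate 1 or 2. The list medians of the Kupffer cell, monocyte, dendritic cell and neutrophil markers were -1.14, -1.33, -1.31 and -1.25, and that of T and NK cells -0.73. The first 4 were near the log2 fold change of Zbp1 (-1.35), while Ripk3 (-0.90) lay above and Dram1 (-2.09) below them. The part of these cells in the differences of Zbp1, Ripk3 and Dram1 was not tested.

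**Figure D4:**
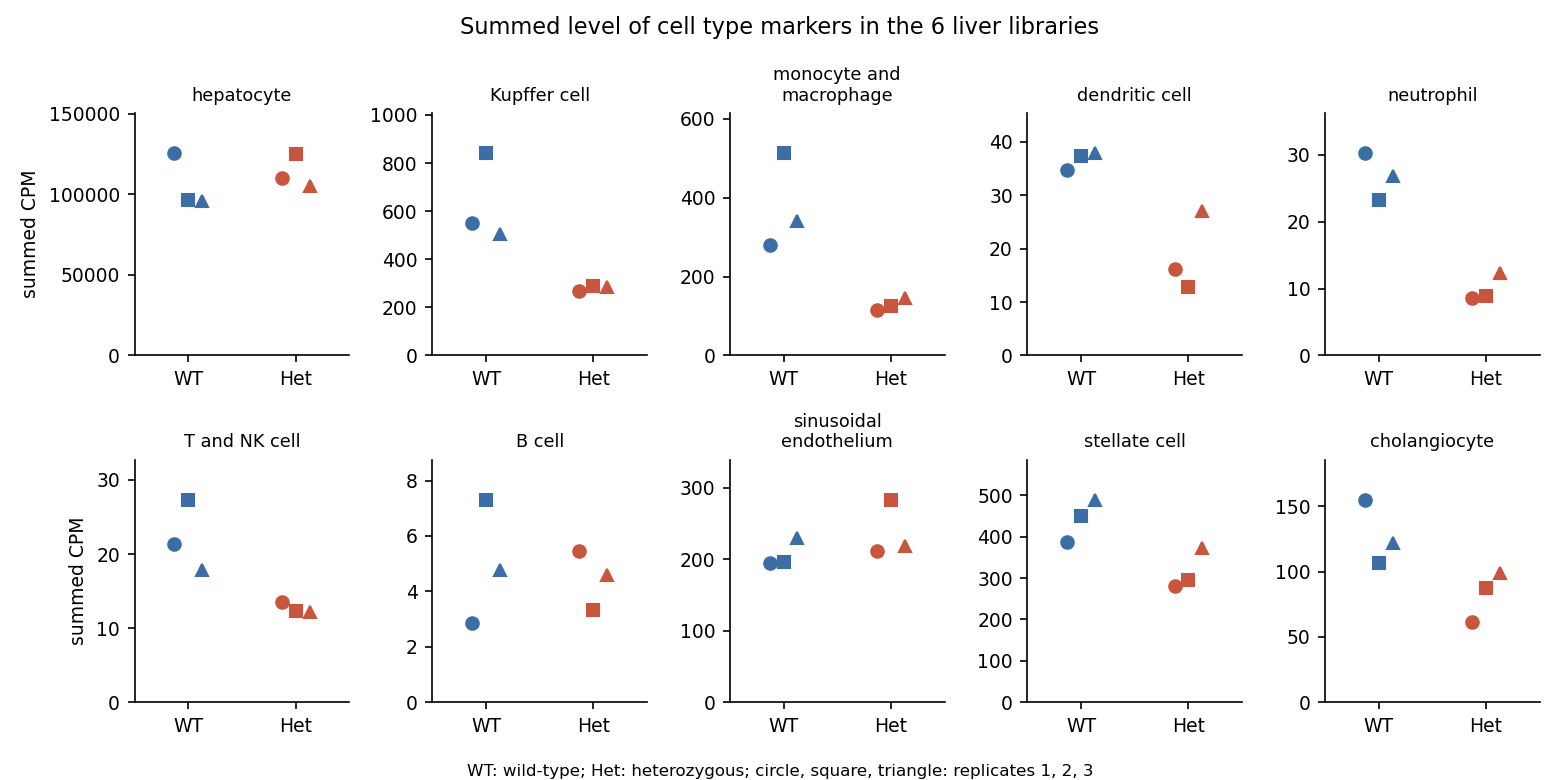
Summed CPM (linear axes from 0) of the markers of 10 cell types in the 3 wild-type (blue) and 3 heterozygous (red) libraries; symbols are replicates 1 to 3. The sums of macrophage, dendritic cell, neutrophil, T and NK cell, stellate cell and bile duct (cholangiocyte) markers are lower in every heterozygous library. For Kupffer cells they are 270 to 288 against 505 to 840.2 CPM. The hepatocyte, endothelial and B cell sums overlap, although the endothelial genes Clec4g and Pecam1 are apart, higher and lower in that order. Single genes within the lower sums can overlap between the groups, among them Folr2, Zbtb46 and Klrb1c.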

How the data were processed

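RNA was extracted from liver with TRIzol, and 500 ng per sample went into stranded mRNA libraries, per the labels' protocols. Trimmomatic 0.36, HISAT2 2.2.1.0, HTSeq 0.9.1 and GRCm39 are named, per the submitters' processing notes; annotation, strand setting and filters were not given in the sources used here. Per the table itself, the authors deposited raw counts of reads, 1 row for each gene symbol, in a table of 6 columns without unnamed rows. Of 17119 symbols, 12706 passed filterByExpr (at least 10 reads at the median depth in 3 libraries).

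In R 4.3.3, edgeR 4.0.16 was used (TMM, robust quasi-likelihood fit, no covariates, Benjamini-Hochberg over all tested genes, threshold 0.05). SE is the absolute log2 fold change over the square root of F. Log2 CPM for profiles used a prior count of 2. Alternatives were RLE scaling, no filter, 1 CPM in 3 samples, DESeq2 1.42.0, limma-voom (limma 3.58.1, robust), the replicate number as a block and each library left out; limma-voom without the robust step, and wild-type replicate 1 and heterozygous replicate 2 left out together, were added after seeing the data. The edgeR fit was tested on simulated data.

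The members, lists and tests were chosen with earlier results of these data known. Named genes were the members, Cebpb and Clec4f, the called genes and the 4 smallest p-values of each list, and 10 genes set by role (Tnf, Fasl, Tnfsf10, Tnfrsf1a, Tradd, Fadd, Bid, Trp53, Dram2, Adar); for each of Zbp1, Mlkl, Ripk3 and Dram1 also the 3 nearest profiles. Serpinb6a was added for its overlap with Ripk1, and 1 gene that the rule names is not reported here.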

Additional observations from a re-analysis of the deposited data

How the results depend on the processing

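The number of genes past the threshold, 74 with all libraries, depended on the settings. It was 211 with no filter on low counts, 48 with at least 1 CPM in 3 samples, 534 in DESeq2, 46 in limma-voom and 0 in limma-voom without the robust step (1686 at an unadjusted p under 0.05), and it ran from 0 to 122 with 1 library left out. The counts were 4, 6 and 20 without wild-type replicates 1, 2 and 3 and 0, 0 and 122 without heterozygous replicates 1, 2 and 3, with 1104 and 1601 genes at an unadjusted p under 0.05 in the fits with 0. With both wild-type replicate 1 and heterozygous replicate 2 left out it was 4. Of the listed pathway genes 2 were called; there were 5 with no filter on low counts, 17 in DESeq2, 0 in limma-voom without the robust step, 0 to 4 with 1 library left out and 0 without both libraries. The cause was not tested.

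With the replicate block, 0 genes were called (1427 at an unadjusted p under 0.05), and 0 of the listed genes. The deviations of libraries with the same number had correlations of -0.212, -0.307 and 0.186, and the numbers were not taken as pairs.

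With 1 library left out, 8 log2 fold changes changed sign, none of them past the threshold in any fit run. Cflar ranged from -0.10 to 0.058, Adar from -0.21 to 0.037, Tradd from -0.20 to 0.021, Tnfsf10 from -0.32 to 0.24, Bid from -0.16 to 0.20, Trp53 from -0.072 to 0.15, Dram2 from -0.017 to 0.12 and Cebpb from -0.70 to 0.016. With both libraries left out, Bid was at -0.08, Dram2 at -0.026 and Trp53 at 0.17. Depth limits Tnfrsf10b, with 49 reads over the 6 libraries, most among the members.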
